A study of Mus musculus with 12 samples.

Results

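Cytosolic ribosomal protein genes encode the proteins of the large (Rpl) and small (Rps) subunits of the ribosome that translates nuclear transcripts. They were taken as every symbol in the expression table built from Rpl or Rps and a number, with at most a short suffix, plus Rplp0, Rplp1, Rplp2 and Rpsa, with a normalized value of at least 10 in at least 3 of 12 mouse liver libraries. The pattern matched 88 of 47263 genes, and 82 passed the filter, 47 of the large and 35 of the small subunit. The table has 13871 genes that passed the same filter. Of the 82 members, 78 are annotated as protein coding and 4 as pseudogenes (Rpl6l, Rps3a2, Rps3a3 and Rps4l). The 6 symbols that failed were Rpl10l, Rpl39l, Rpl3l, Rps12l1, Rpl24 and Rpl23a.

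The libraries came from whole liver of 4 groups with 3 libraries each. WT mice carried intact Sirt2 and KO mice a Sirt2 deletion in hepatocytes, and each genotype received GFP or MET/CAT plasmids. The labels do not name the line that drives the deletion. Mice aged 6 to 8 weeks received plasmids with a sleeping beauty transposase by hydrodynamic tail vein injection. The MET/CAT plasmids express c-MET and an N-terminally shortened beta-catenin from the EF1a promoter as a liver cancer model, and the GFP mixture is not described in the labels. Livers were collected 8 weeks later. Groups were read from the sample titles. A treatment field in the labels varies with genotype alone and disagrees with those titles for the KO GFP and for the WT MET/CAT libraries. The labels do not say that replicates are separate mice, so p-values measure the spread between libraries.

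Ribosomal proteins are made in matched amounts, because each ribosome holds a single copy of most of them. Many of their transcripts begin with a C followed by a run of pyrimidines, the 5′ terminal oligopyrimidine (TOP) tract, through which the mTOR pathway controls their translation. In liver, ribosome production rises when hepatocytes grow or divide.

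Start sites were read from RefSeq (build GRCm38.p6) for the 59 members that had an entry. A run of at least 8 C or T bases on the sense strand, in the window from 20 bases before to 50 bases after the start, was found for 47 of these 59 members (79.7%). The share was 27.5% of 10462 other tested genes and 28.5% of all 27025 genes with an entry. The same window held a run of at least 8 A or G bases in 11.9% of members and 30.8% of the other tested genes. The 7-letter string CTCTTTC, which lies within such runs, stood on the sense strand of this window in 20.3% of members and 0.965% of the other tested genes, and on the other strand in 1.69% and 0.774%. The ETS-type string CCGGAAG, searched on both strands from 250 bases before to 50 after the start, was present in 42.4% of members and 18.8% of the other tested genes. These matches are descriptions of letters and not of bound factors.

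Windows of 30 bases, 15 before and 15 from the start onward, are printed 5′ to 3′ for the members with the smallest p-values that had an entry. Rps6 was added for its role, Rps18 as 1 of the 5 highest members per kilobase, and Rpl7l1 as a member with a short run. The windows shown do not stand for all members. Rpl41, Rps2 and Rps15, at higher levels than Rps18, had longest runs of 3, 6 and 3 bases in this window. Capitals mark the longest C or T run in the window.
Rpl35 (chr2:39005117-39005146, minus strand): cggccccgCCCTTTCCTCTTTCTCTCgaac
Rplp2 (chr7:141447636-141447665, plus strand): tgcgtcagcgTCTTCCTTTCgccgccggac
Rpl14 (chr9:120571502-120571531, plus strand): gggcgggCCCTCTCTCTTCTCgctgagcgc
Rpl13a (chr7:45128731-45128760, minus strand): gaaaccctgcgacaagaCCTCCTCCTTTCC
Rpl22l1 (chr3:28805493-28805522, plus strand): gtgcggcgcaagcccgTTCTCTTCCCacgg
Rps6 (chr4:86857353-86857382, minus strand): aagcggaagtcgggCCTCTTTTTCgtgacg
Rps18 (chr17:33955651-33955680, minus strand): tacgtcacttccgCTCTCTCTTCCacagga
Rpl7l1 (chr17:46782642-46782671, minus strand): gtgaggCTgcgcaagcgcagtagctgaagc
The run crosses the annotated start in Rpl35, Rplp2, Rpl14, Rps6 and Rps18 and begins just after it in Rpl13a and Rpl22l1, and Rpl7l1 has no run longer than 2 bases here. Members with and without a run of 8 had medians close to each other in every comparison. In KO GFP against WT GFP livers these were log2 −0.61 (47 members) and −0.54 (12 members), and in KO MET/CAT against KO GFP livers 0.72 and 0.61.

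Sirt2, the targeted deacetylase, had normalized levels of 823.7, 923.6 and 725.8 in WT livers given GFP, and KO livers given GFP had 232.6, 182.5 and 125.7. WT MET/CAT livers gave 1068, 942.7 and 908.4, and KO MET/CAT livers 248.1, 234.3 and 200.6. The KO libraries were all below the WT libraries, so the genotype in the titles matched the targeted gene. The libraries held 18208879 to 24352961 reads, and 8 hepatocyte markers summed to 2106520 or more normalized reads in every library.

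Members differed widely in level. Per kilobase of transcript, the mean over 12 libraries ran from 10.5 to 48717 normalized reads, with a median of 5737. The highest was Rplp1, an acidic protein of the ribosomal stalk, at 48717, which ranked 35 among 13835 tested genes with a known length. Rpl41, a very small basic protein, followed at 35279, Rps2 at 28432, Rps15 at 28086 and Rps18 at 22671. Stalk base protein Rplp0 was at 14208 and stalk protein Rplp2 at 8765. Rpsa, which also binds laminin, was at 10907. The lowest protein-coding members were Rps27 at 169.9 and Rpl12 at 226.8, and the annotated pseudogenes Rps3a2, Rpl6l and Rps3a3 lay at 10.5, 11.7 and 12.8.

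Low levels went along with shared sequence in part of the set. Of the 50-base windows of a member's transcript, a median of 53.5% also occurred in an annotated transcript of another gene, against 0% for the median tested gene. Rps27 had 98.7% of windows elsewhere, with 292 windows shared with Rps27rt, and Rpl35 had 95.1%, with 529 shared with Wdr38 and 337 with Gm2000. Rpl24 and Rpl23a, which failed the filter with mean levels of 3.4 and 7.1, had 81.7% and 85.7%. Reads in such windows can be placed in more than 1 gene, so levels of these members are uncertain. Among protein-coding members the median level per kilobase was 8328 for the 28 with under 40% of windows elsewhere, 7168 for 34 members from 40 to 80%, and 3217 for 16 members above 80% (Spearman rho −0.20 across the 78, which are not independent).

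**Figure D1:**
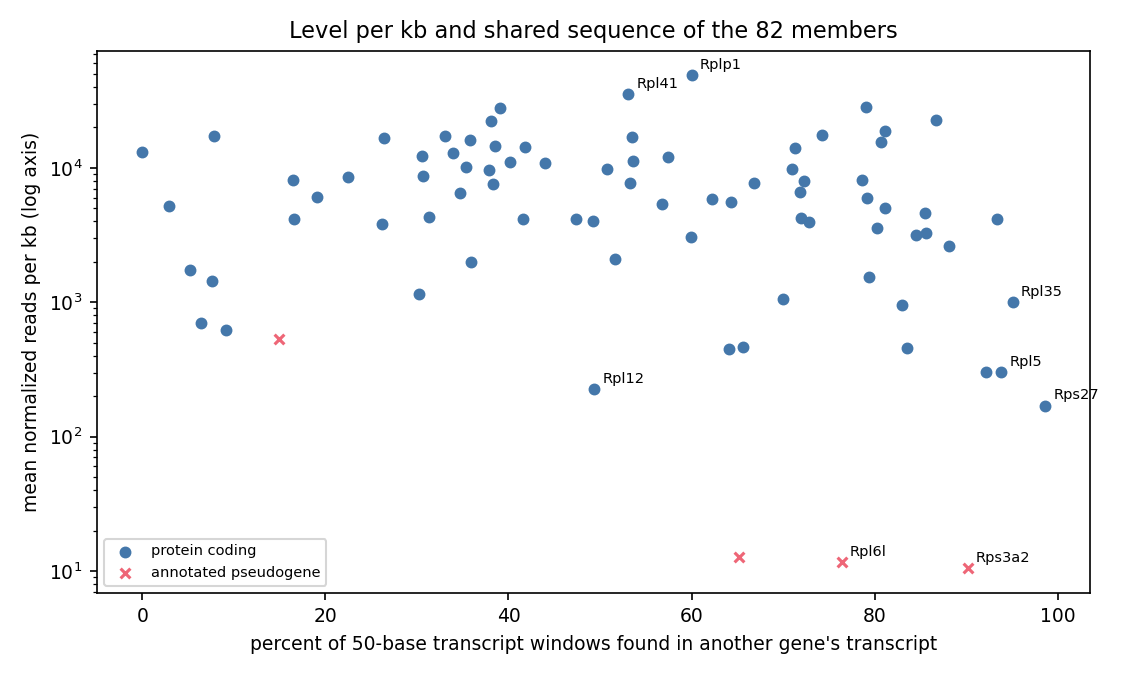
Mean normalized reads per kilobase (log axis) of each member against the percent of its 50-base windows found in another gene's transcript; circles are protein-coding members and crosses annotated pseudogenes. Rplp1 is highest at 48717, and Rps27, with 98.7% of windows elsewhere, is the lowest protein-coding member at 169.9.

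Symbols with an added letter l are named after a core gene, and several are paralogs of it. Rpl6l and Rps4l are annotated as pseudogenes, and Rpl3l, Rpl39l and Rpl10l failed the filter. Rpl7l1, a paralog of Rpl7, was at 18.2% ± 0.7, 20.3% ± 3.1, 17.5% ± 2.71 and 17.3% ± 2.05 of the normalized reads of Rpl7 (SD, n = 3; WT GFP, KO GFP, then WT and KO with MET/CAT), with overlap between all groups. Rps4l stood at 6.12 to 6.83% of Rps4x in the group means. Rps27l had more reads than Rps27, with means of 4246 against 58.6 over the 12 libraries, beside the shared windows of Rps27 given above. Rpl3l, known from muscle, had a mean of 4.3, Rpl39l a single value above 0, and Rpl10l, known from testis, no read in any library.

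As a group the members moved together between libraries. Their share of all reads was 2.73, 3.40 and 2.31% in WT GFP livers and 2.23, 2.47 and 1.37% in KO GFP livers. It was 2.74, 2.04 and 1.89% in WT MET/CAT livers and 2.47, 3.28 and 2.84% in KO MET/CAT livers. Group means in this order were 2.81% ± 0.55, 2.02% ± 0.58, 2.22% ± 0.45 and 2.86% ± 0.41 (SD, n = 3). The lowest library was KO GFP replicate 3, in which 0 of 82 members were above their own mean over the 12 libraries. WT GFP and KO GFP overlapped, as did WT MET/CAT and KO MET/CAT, whereas KO GFP and KO MET/CAT met at 2.47%. After group means were subtracted, 70 of 82 members correlated at 0.8 or more with the mean of the other members over the 12 libraries, as a description of genes measured in the same libraries. The median correlation between pairs of members was 0.87, and 0.41 with the length trend removed. Nuclear oxidative phosphorylation subunits had 0.90 and 0.46.

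**Figure D2:**
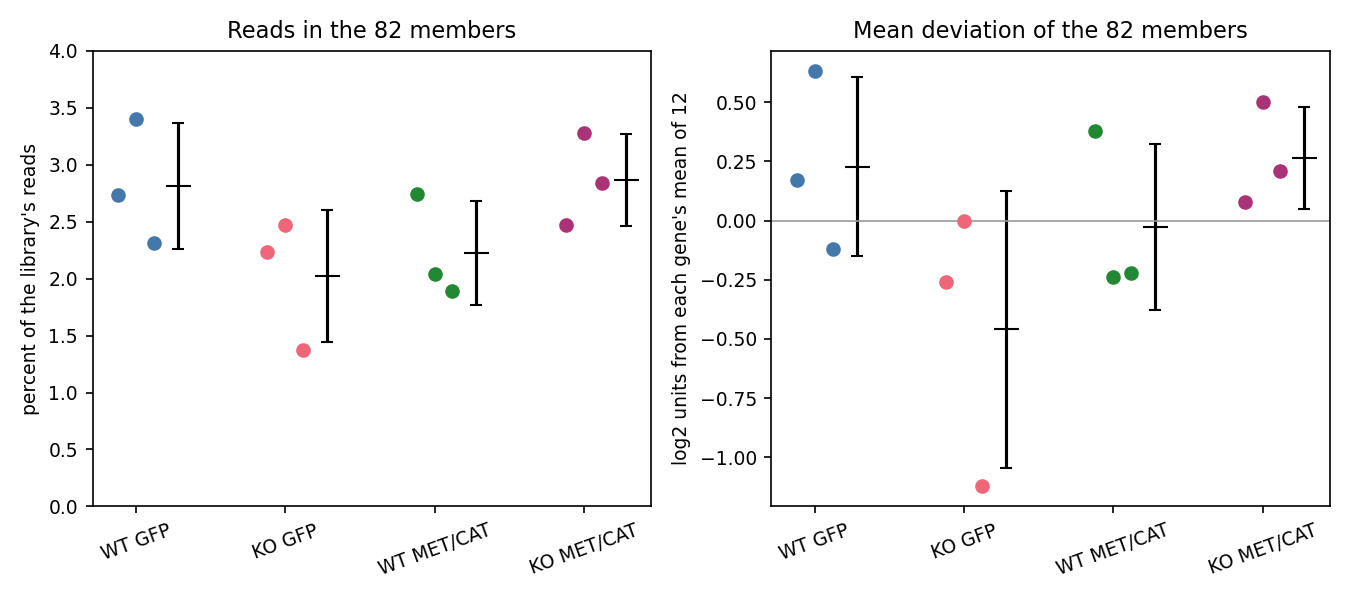
Percent of each library's reads in the 82 members (left, axis from 0) and their mean log2 deviation from each gene's own mean (right), 1 point per library, with bars for the mean and SD of 3 libraries. KO GFP replicate 3 is lowest at 1.37% of reads and a mean deviation of −1.12.

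Within the set, the least variable members around their group means were Rpl7l1, Rpl7a and Rpl4, with residual SDs of 0.16, 0.18 and 0.19 on the log2 scale. The most variable were Rps3a2 (1.03), Rps13 (0.85) and Rpl6l (0.82). Profiles least like the other members were those of Rps3a3 (residual r = 0.06 over 12 libraries), Rps3a2 (0.31) and Rpl19 (0.49). Rps3a2, Rps3a3 and Rpl6l had mean levels of 8.3 to 10.2 normalized reads, near the filter.

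Loss of hepatocyte Sirt2 in GFP livers, asked with KO GFP against WT GFP, came with lower values of nearly all members, and none passed the test. The median log2 difference was −0.62, with 81 of 82 members lower. The annotated pseudogenes Rpl6l and Rps3a3 passed the filter only through their WT GFP libraries, so the filter itself favored lower KO GFP values for them. Over the 78 protein-coding members the median was −0.61, with 77 lower and 30 at an unadjusted limma p under 0.05. All tested genes had a median of −0.07, with 7646 of 13871 lower, and non-member genes with transcripts under 1000 bases had −0.62, with 985 of 1194 lower. With each library's trend with transcript length removed, as described further on, 50 of 82 members had lower values and 32 higher. By limma on log2(value + 1), adjusted by Benjamini-Hochberg over all 13871 genes, 0 members were called at 0.05, where 0.00721% of all genes were called. At an unadjusted p under 0.05 there were 33 members, or 40.2%, against 15.5% of all genes. All 3 KO GFP libraries were below all 3 WT GFP libraries for 17 members (20.7%), and for 13% of all genes. Rpl6l and Rps3a3 are among the 17. edgeR on the recovered reads called 0 members and 0.00721% of genes, and DESeq2 called 2 of the 79 members with an adjusted p and 1.03% of genes. Weighting libraries by quality in limma called 39 members (47.6%) and 33% of all genes. The weights were 7.251 for WT GFP replicate 1 and 6.059 for KO GFP replicate 1. The other GFP libraries had 0.24 (KO GFP replicate 3) to 0.921, so replicate 1 carried most of the weight in both groups.

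Rpl35, at the exit of the large subunit's peptide tunnel, had normalized levels of 1302, 2173 and 1484 with Sirt2 intact (WT GFP) and 424.6, 753.1 and 242.3 without it (KO GFP). These libraries did not overlap. Its log2 difference was −1.92 (SE 0.36, limma adjusted p = 0.145). DESeq2 gave an adjusted p of 0.00115 for Rpl35. Rpl13a, a large subunit protein, had 13927, 25877 and 15269 against 6736, 9645 and 4853. Again the groups did not overlap, and its difference was −1.38 (SE 0.33, limma adjusted p = 0.241; DESeq2 adjusted p = 0.015). Rpl22l1, a paralog of Rpl22, differed by −1.20 (SE 0.32, limma adjusted p = 0.272). Rps7, a small subunit protein, had the only positive value of the set, 0.15.

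In MET/CAT livers, KO against WT values leaned the other way and were smaller. The median was 0.29, with 72 of 82 members higher, against −0.00 over all tested genes. None of the members were called by limma (0.00721% of all genes), edgeR (0.00721%), DESeq2 (0.272%) or limma with quality weights (0.0144%). An unadjusted limma p under 0.05 was reached by 2 members, or 2.44%, below the 7.76% of all genes. All 3 KO MET/CAT libraries lay above all 3 WT MET/CAT libraries for 6 members (7.32%), near the 6.82% of all genes.

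Rpl30, a large subunit protein, had 3847, 2818 and 5070 normalized reads in WT MET/CAT and 5838, 7686 and 6770 in KO MET/CAT. The groups did not overlap, with a log2 difference of 0.82 (SE 0.26, limma adjusted p = 0.501). Rplp2 stood at 8924, 6252 and 5698 against 9331, 14120 and 9501, a difference of 0.66 (SE 0.29, limma adjusted p = 0.613). Rps29, a small zinc-binding protein of the small subunit, overlapped between the groups and differed by 0.71 (SE 0.38, limma adjusted p = 0.668).

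With Sirt2 intact, MET/CAT against GFP values were mostly lower. The median was −0.24 with 66 of 82 members lower, against −0.01 over all tested genes. Over the 78 protein-coding members it was −0.23, with 62 lower. No member was called by limma (0.339% of all genes) or edgeR (0.526%), and DESeq2 called 2 members and 4.09% of genes. Quality weights gave 6 members (7.32%) and 18.9% of genes. Unadjusted p-values under 0.05 were found for 5 members (6.1%) against 14.8% of all genes. For 6 members (7.32%) all WT MET/CAT libraries were below all WT GFP libraries, against 10.3% of all genes. Rpl6l and Rps3a3, which passed the filter only through WT GFP, are among the 6.

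Rpl22l1 had 400.9, 472.5 and 377.6 normalized reads in GFP livers and 176.4, 194.0 and 146.8 in MET/CAT livers. The groups did not overlap, with a log2 difference of −1.27 (SE 0.32, limma adjusted p = 0.091; DESeq2 adjusted p = 0.00979). Its level as a percent of Rpl22 was 10.1 ± 0.998 in WT GFP livers against 6.91 ± 2.69 in KO GFP livers, and 5.29 ± 0.911 in WT MET/CAT against 5.75 ± 1.12 in KO MET/CAT livers (SD, n = 3). The ratio is of normalized reads and not per length. Rpl35 had 1007, 562.0 and 522.6 in WT MET/CAT, all below WT GFP, a difference of −1.27 (SE 0.36, limma adjusted p = 0.123; DESeq2 adjusted p = 0.0231). Rps29 differed by −0.98 (SE 0.38, limma adjusted p = 0.255).

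In KO livers, MET/CAT against GFP values were higher for nearly all members. The median was 0.71, with 80 of 82 higher, against 0.05 over all tested genes. None were called by limma (1.25% of all genes) or edgeR (1.46%), while DESeq2 called 1 of 81 members and 7.11% of genes. With quality weights it was 20 members (24.4%) and 11.8% of genes. There were 48 members (58.5%) with an unadjusted limma p under 0.05, against 20.3% of all genes. Likewise 48 members (58.5%) had all 3 KO MET/CAT libraries above all 3 KO GFP libraries, against 14.4% of all genes. This comparison shares the KO GFP libraries with the first one.

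Rplp2 had 5625, 7146 and 3594 normalized reads in KO GFP and 9331, 14120 and 9501 in KO MET/CAT. The groups did not overlap, and the difference was 1.04 (SE 0.29, limma adjusted p = 0.0961; DESeq2 adjusted p = 0.0319). Rpl35 had 1042, 849.5 and 950.0 in KO MET/CAT, above its 3 KO GFP values, and differed by 1.14 (SE 0.36, limma adjusted p = 0.119). Rpl14, a large subunit protein, had 2899, 3391 and 1049 against 4377, 7135 and 4833, a difference of 1.29 (SE 0.41, limma adjusted p = 0.119). Of the other stalk genes, Rplp1 differed by 1.09 (limma adjusted p = 0.126) and Rplp0 by 0.71 (limma adjusted p = 0.168).

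**Figure D3:**
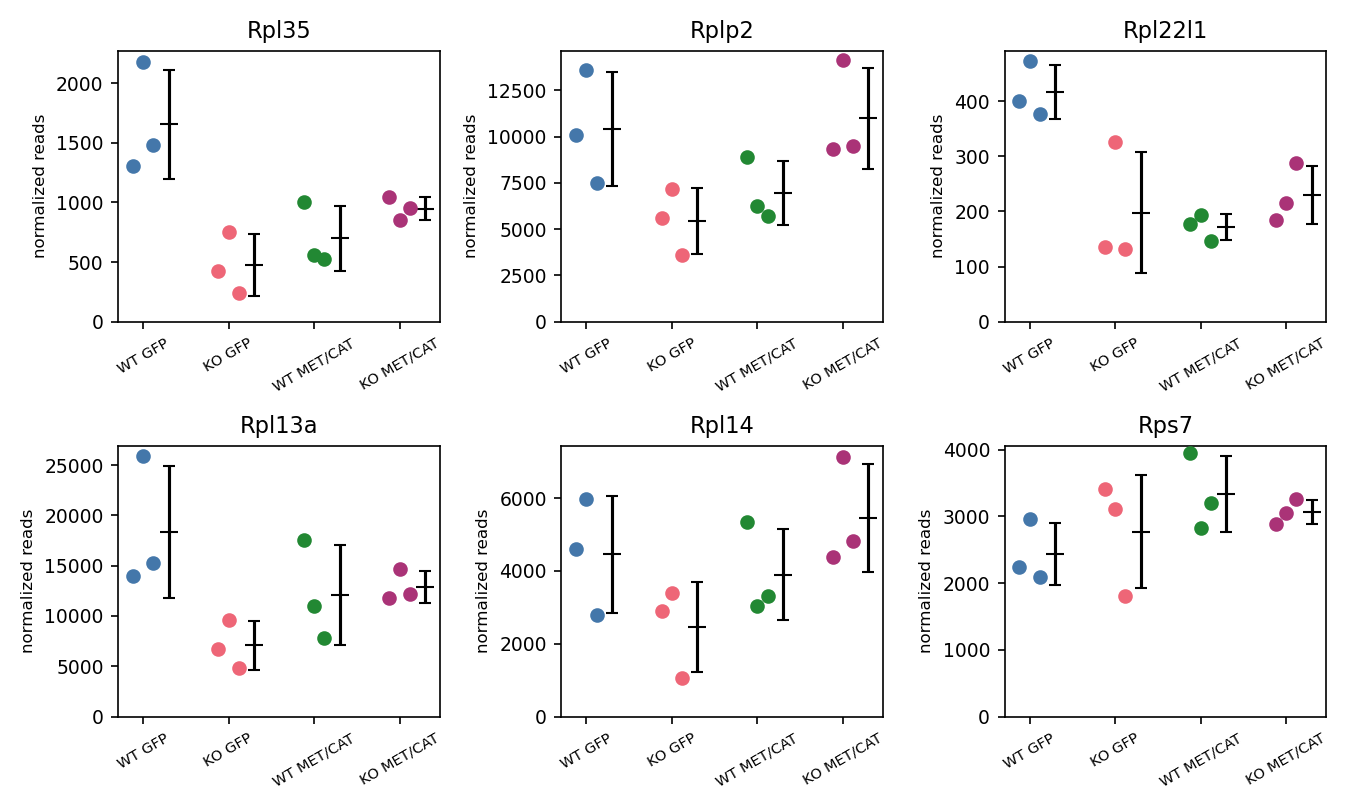
Normalized reads in each library (1 point each, axis from 0) for 6 members, with bars for the mean and SD of 3 libraries. Rpl35 lies between 242.3 and 753.1 in KO GFP and between 1302 and 2173 in WT GFP; Rps7 overlaps between these groups.

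Several members have known roles beyond the ribosome. Rpl5 and Rpl11, which bind and restrain Mdm2 with 5S ribosomal RNA, differed between KO GFP and WT GFP by −0.57 and −0.63, and between KO MET/CAT and KO GFP by 0.75 and 0.29, with limma adjusted p of at least 0.228. Rps6, the substrate of S6 kinase downstream of mTOR, differed by −0.46 and 0.76 (limma adjusted p = 0.563 and 0.295). Rps27a, made as a fusion with ubiquitin, differed by −0.35 and 0.66 (limma adjusted p = 0.515 and 0.197). Rpsa differed by −0.94 and 1.11 (limma adjusted p = 0.29 and 0.133).

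The interaction of genotype and plasmid, which asks whether the genotype difference itself changed with the plasmid, had a median of 0.99 over the members, with 78 of 82 above 0, against 0.04 over all tested genes. Called members numbered 0 by limma (0% of all genes) and 0 by edgeR (0%), and 2 of 79 by DESeq2 (1.27%), against 29 members (35.4%) and 9.91% of genes with quality weights. An unadjusted limma p under 0.05 was found for 43 members (52.4%) and 15.5% of all genes. The smallest p were those of Rpl35 (2.42, SE 0.51, limma adjusted p = 0.226), Rplp2 (1.60, SE 0.42, limma adjusted p = 0.265) and Rps29 (1.93, SE 0.54, limma adjusted p = 0.265). By DESeq2 the interaction was 2.22 for Rpl35 (adjusted p = 0.0085) and 1.56 for Rplp2 (adjusted p = 0.0382). A call on the interaction thus depended on the method.

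Transcript length moved with these differences. Members had a median transcript length of 834 bases against 2838 for tested genes, and 57 of 82 were under 1000 bases. The 1194 non-member genes under 1000 bases had medians of −0.62, 0.25, −0.37 and 0.48 in the 4 comparisons in the order above, and 0.89 for the interaction. Non-member genes over 5000 bases had 0.24, −0.09, 0.13, −0.18 and −0.32. Over the 12 libraries the mean deviation of the members correlated with that of short non-member genes at r = 0.96, as a description of values that share each library's normalization. KO GFP replicate 3 had the strongest trend, with a Spearman rho of 0.49 between length and deviation across non-member genes. Between length and log2 difference, rho within the members was 0.29, −0.28, 0.40 and −0.15 in the 4 comparisons. Across 13753 non-member genes it was 0.41, −0.19, 0.24 and −0.30. In MET/CAT against GFP KO livers, members shorter and longer than the member median had medians of 0.70 and 0.72.

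**Figure D4:**
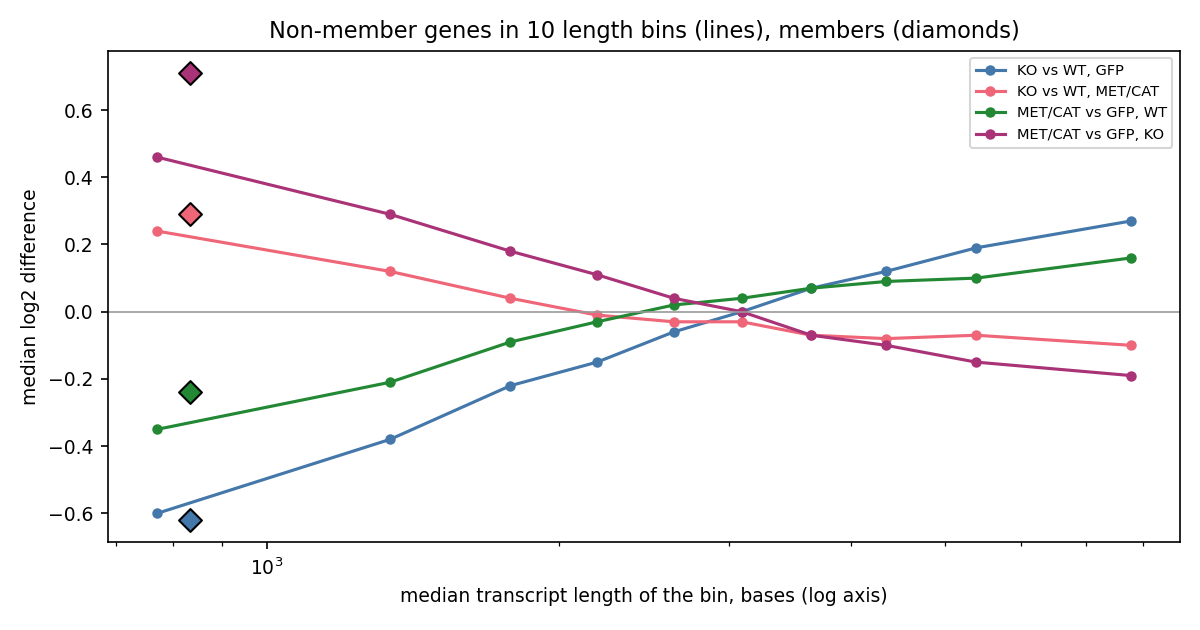
Median log2 difference of non-member genes in 10 bins of transcript length (lines, log axis in bases) in 4 comparisons, with the median of the 82 members as diamonds at their median length of 834 bases. In KO against WT GFP livers the shortest bin is at −0.60 and the members at −0.62; in MET/CAT against GFP KO livers these are 0.46 and 0.71.

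When each library's trend with transcript length was removed by loess, the members' medians became −0.07, 0.14, 0.05 and 0.30, and 0.24 for the interaction. Members above 0 then numbered 32, 61, 46 and 69 of 82, and 55 for the interaction. The value for MET/CAT against GFP in WT livers thus changed sign. In KO livers short non-member genes then had a median of −0.01. These genes are part of the loess fit, so a median near 0 follows from the removal itself. In the same comparison nuclear oxidative phosphorylation subunits had a median of 0.21, with 53 of 74 above 0. How much was removed depended on the length used: with the exon union of each gene in place of the principal transcript the medians were −0.27, 0.27, −0.08, 0.41 and 0.49. Without KO GFP replicate 3 and with no length correction, the median was −0.29 for KO against WT in GFP livers, 0.40 for MET/CAT against GFP in KO livers and 0.66 for the interaction. With both changes, an alternative chosen after seeing the data, these were −0.05, 0.24 and 0.20.

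**Figure D5:**
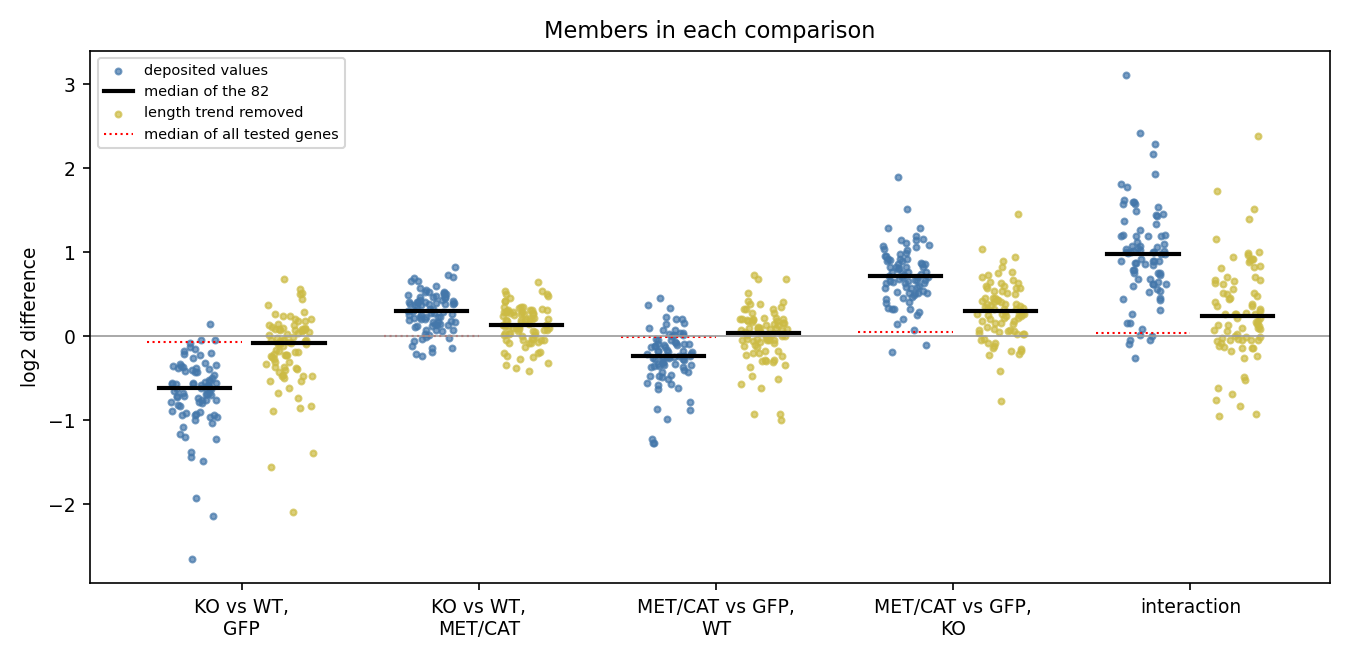
Log2 difference of each of the 82 members in 4 comparisons and the interaction, from the deposited values (blue) and after removal of the length trend (yellow), with black bars for medians and dotted red lines for the median of all tested genes. The median in KO against WT GFP livers goes from −0.62 to −0.07, and in MET/CAT against GFP KO livers from 0.71 to 0.30.

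Other gene groups, some with short transcripts and some with longer ones, were set beside the members. Median lengths were 1280 bases for mitochondrial ribosomal proteins, 1939 for elongation factors, 2287 for initiation factors and 3358 for mTOR and TOP regulators. All tested genes had a median length of 2838 bases. The 74 nuclear subunits of oxidative phosphorylation, with a median length of 787 bases, had medians of −0.60, 0.35, −0.38 and 0.56, and 0 were called in any comparison. With the length trend removed these were −0.11, 0.18, −0.08 and 0.21, and 0.29 for the interaction, beside the members' 0.30 in MET/CAT against GFP KO livers and 0.24 for the interaction. The 77 tested mitochondrial ribosomal proteins had −0.48, 0.16, −0.32 and 0.31 with 0 called. With the length trend removed they had −0.12, 0.11, −0.18 and 0.09, with 44 of 77 above 0 in MET/CAT against GFP KO livers. Ribosome biogenesis factors, which assemble the subunits and have a median length of 2761 bases, had −0.05, 0.04, 0.04 and 0.16 over 72 genes with 0 called. Of 36 translation initiation factors, 1 was called, Eif2b4, a subunit of the exchange factor for eIF2, which was higher in KO MET/CAT than in KO GFP (1.16, SE 0.24, limma adjusted p = 0.0364). The 7 tested elongation factors had medians of −0.41, 0.20, 0.02 and 0.45 with 0 called, and −0.19, 0.12, 0.08 and 0.19 with the length trend removed. Among 21 regulators of mTOR and TOP transcripts 0 were called, with medians of 0.16, −0.07, 0.07 and −0.14.

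Rpl36al, a ribosomal protein whose symbol falls outside the pattern, differed by −0.86 between KO GFP and WT GFP livers (limma adjusted p = 0.319). The 45 named ribosomal protein pseudogenes that passed the filter, of 274, had medians of −0.65, 0.11, −0.18 and 0.56, and took 0.006 to 0.018% of reads per library.

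Summed levels of markers of other liver cells also varied between the groups. The 12 Kupffer cell and macrophage markers summed to 9404 to 12453 normalized reads in WT GFP livers against 1882 to 5845 in KO GFP livers. With MET/CAT they summed to 7214 to 10347 in WT and 8229 to 11118 in KO livers, and 0 of the 12 were absent from a group. Their median differences were −1.43, 0.19, −0.30 and 1.23, and 2 were called, Laptm5 and Marco, both higher in KO MET/CAT than in KO GFP. The 8 neutrophil markers summed to 65.5 to 185.8 in the GFP groups and 317.0 to 3085 in the MET/CAT groups. Mmp8 was at 0 in all WT GFP libraries, and Cxcr2 and Ly6g were at 0 in all KO GFP libraries. Of the 7 neutrophil markers tested, limma called 1 higher in MET/CAT against GFP in WT livers (median 2.52). It called 3 higher in KO livers (median 3.63). Lymphocyte markers summed to 335.4 to 479.0 in WT GFP livers and 113.9 to 320.0 in KO GFP livers, with a median difference of −1.11 and 0 of 11 higher. Erythroid markers summed to 9742 to 25843 and 5526 to 7474 in the same groups, a median of −1.23 with 1 of 6 higher. Cholangiocyte markers summed to 188.0 to 444.7 in KO GFP and 589.1 to 1276 in KO MET/CAT livers, a median of 1.27 with 6 of 6 higher. None of these 3 lists had a called gene. Sinusoidal endothelial and stellate cell markers had medians of −0.25 and −0.45 in KO against WT GFP livers, and 0.36 and 0.01 in MET/CAT against GFP KO livers, with 0 called. In whole liver, fewer cells of a type and less RNA per cell cannot be told apart, and the part of these cells in the members' values was not tested.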

How the data were processed

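Values were deposited by the authors as a signal per gene, namely read counts divided by 1 factor per library; the tools HTSeq 0.11.2 and HISAT2 2.0.4 with build GRCm38 are listed, per the submitters' processing notes. No label or header names the normalization tool, annotation or strand setting, so overlapping genes may share reads. Each library's values were multiples of a step of 0.753 to 1.204, and division by it gave whole reads for 100% of values (tolerance 0.01 reads).

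Genes with 3 or more libraries at a value of 10 or above were tested. limma 3.58.1 (R 4.3.3, trend) was fitted to log2(value + 1) with 4 group means over 12 libraries, and Benjamini-Hochberg adjustment was over 13871 genes. The added 1 understates changes of low genes. edgeR 4.0.16 and DESeq2 1.42.0 were run on recovered reads. Lengths and shared 50-base windows came from GENCODE M21, and start sites from RefSeq. The fits were also run on simulated independent genes without a length trend or an outlying library, so that run says nothing about either. Named members were those of smallest p per comparison, extremes of level and variability, paralogs and members of known role. The members and lists were chosen with earlier results of these data known. Figures were drawn with matplotlib 3.10.9 in Python 3.11.15.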

Additional observations from a re-analysis of the deposited data

How the results depend on the processing

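Calls depended on the method. Library quality weights gave WT GFP replicate 1 a weight of 7.251, KO GFP replicate 1 one of 6.059 and KO GFP replicate 3 one of 0.24. With these weights, called members rose from 0 to 39 (KO against WT, GFP), 6 (MET/CAT against GFP, WT), 20 (MET/CAT against GFP, KO) and 29 (interaction). Called members stayed at 0 for KO against WT in MET/CAT livers. All genes called numbered 4575, 2615, 1635 and 1374, in the order of the 39, 6, 20 and 29 members. DESeq2 called 2, 2, 1 and 2 members in the same order, beside 1.03, 4.09, 7.11 and 1.27% of all genes with an adjusted p. With the length trend removed, fitted with or without the members, or together with GC content, 1 of 82 members (Rps7) was called in MET/CAT against GFP WT livers, where 0.988, 0.98 and 0.995% of all genes were called.

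Medians moved with length removal to −0.07 (−0.08 fitted without the members, −0.08 with GC content, −0.05 without KO GFP replicate 3 as well) for KO against WT in GFP livers, and to 0.30 (0.30 with GC content, 0.24 without that library) for MET/CAT against GFP in KO livers. The interaction moved to 0.24 (0.24 fitted without the members, 0.23 with GC content, 0.20 without that library, 0.49 with exon union length). For MET/CAT against GFP in WT livers it reversed to 0.05 in 3 such fits. The cause was not tested. GC content, exon union length and the joint omission were added after seeing the data.

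Leaving out 1 library at a time gave medians of −0.86 to −0.29, 0.17 to 0.51, −0.44 to −0.00, 0.40 to 0.95 and 0.66 to 1.20, and 0 to 2, 0 to 0, 0 to 1, 0 to 0 and 0 to 0 called members. Rpl35 and Rpl22l1 were called without KO GFP replicate 2 (0.0721% of all genes), and Rpl35 without WT MET/CAT replicate 1 (2.68% of all genes). Residual correlations of same-numbered libraries were −0.20 to 0.28, over 0.1 in 5 of 18. Differently numbered libraries were not set beside them, so these values cannot decide whether replicate numbers pair libraries. The replicate block called 1 of 82 members, Rplp2, in MET/CAT against GFP KO livers, and 1.35% of all genes.

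Equal library totals moved the median of all genes to 0.11, 0.06, −0.12, −0.17 and −0.07, with members at −0.44, 0.35, −0.35, 0.49 and 0.88. Outside the 10 most abundant genes, the share of reads was 3.52% in WT GFP, 2.54% in KO GFP, 2.92% in WT MET/CAT and 3.59% in KO MET/CAT. The median level per kilobase was 2258 by exon union and 12266 by coding length.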

Other observations

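Targets of p53, a pathway that ribosomal proteins can engage through Mdm2, had medians of 0.31, 0.20, 0.10 and 0.39 over 15 genes in the 4 comparisons, with 0 called by limma. The 14 core proteasome subunits, with a median transcript length of 1162 bases, had −0.42, 0.11, −0.20 and 0.33, and −0.01, −0.03, 0.05 and −0.02 after the length trend was removed. Dedicated chaperones of ribosomal proteins, 14 genes tested, had −0.21, 0.05, −0.15 and 0.00, with 0 called.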
